A study of Mus musculus with 12 samples.

Results

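MHC class I molecules show peptides from inside the cell to T cells and natural killer cells, and the genes described here encode parts of that route. The gene table of the array platform was searched for H2-T24, H2-T23 and H2-M3 (non-classical class I heavy chains), B2m (the light chain), Tap1 and Tap2 (the peptide transporter), Tapbp (tapasin), Psmb8 and Psmb9 (immunoproteasome subunits) and Nlrc5 (the class I transactivator). Of these 10 genes, 9 had probe sets of their own among the 18193 genes that a probe set named alone, and H2-T23 had only 2 probe sets that it shared with H2-T-ps. The genes were chosen by name, with the male to female differences of H2-T24 on these arrays already known. The 9 genes had 15 probe sets. Of these, 12 passed a filter on low values, set at a log2 value of 5 averaged across arrays, and every one of the 9 genes kept at least 1. The other 3 were Tap1 probe sets with means of 2.11, 2.35 and 3.76.

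The data came from whole thymus of mice aged 7 to 8 weeks, with 3 arrays in each of 4 groups, 12 in all. The groups were XXsry males, XX females, XY-sry males and XY- females, as the labels spell them. The names match a mouse design in which Sry, the testis-determining gene, is missing from the Y chromosome and is supplied by an autosomal transgene. That design separates gonadal sex from the sex chromosome complement. The labels name no strain, transgene insertion or promoter, and do not say whether each array stands for 1 mouse.

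Array medians lay between 4.02 and 4.10, and 3 arrays per group set the precision, with a median standard error of 0.0547 for a difference averaged over the other factor and 0.0774 within 1 complement. XY- replicate 2 stood slightly apart, with the lowest mean correlation with other arrays (0.981, against up to 0.991) and the lowest gap between the 3' and 5' actin probe sets, a measure of RNA integrity (0.51). Without it Nlrc5 and both Tapbp probe sets remained called in the test of gonadal sex below. H2-M3 and B2m were then called as well (limma adjusted p = 0.0353 and 0.0355). Calls over all 17925 tested probe sets rose too, to 1744 from 1176.

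In the thymus, class I molecules on epithelium and dendritic cells select CD8 T cells. The proteasome cuts proteins into peptides, the Tap1 and Tap2 transporter moves them into the endoplasmic reticulum, and tapasin holds the empty heavy chain beside the transporter until a peptide binds. Interferons raise most of these genes, and Nlrc5 joins factors bound to a conserved promoter module to switch on class I heavy chains, B2m, Tap1 and Psmb9.

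The 9 genes and H2-T23 lie on chromosomes 17, 2 and 8 in GRCm38.p6. On chromosome 17, Psmb9, Tap1, Psmb8 and Tap2 lie together in 34.3 kb (chr17:34182030-34216321), with Tapbp at chr17:33919478-33929290, H2-T24 at chr17:36003471-36020800, H2-T23 at chr17:36029977-36032701 and H2-M3 at chr17:37270234-37274485. B2m lies at chr2:122147687-122153082 and Nlrc5 at chr8:94434335-94527272.

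The RefSeq promoter table for GRCm38.p6 held 7 of the 10 genes, and the 250 bases before the start are printed for 4 of them. B2m and H2-M3 are shown because they hold the same spaced pair of motifs, Tap1 because its window lies mostly within that of Psmb9, and Tapbp because its probe sets passed the test below. H2-T24, Tap2 and Nlrc5 are named only. Capitals in the B2m and H2-M3 lines mark TGACG followed by ATTGG, and in B2m also the interferon response core GAAANNGAAA. In the Tap1 and Tapbp lines they mark TGACG and the CCAAT box on either strand, and Tapbp held only the box.
B2m (chr2:122147437-122147686, plus strand): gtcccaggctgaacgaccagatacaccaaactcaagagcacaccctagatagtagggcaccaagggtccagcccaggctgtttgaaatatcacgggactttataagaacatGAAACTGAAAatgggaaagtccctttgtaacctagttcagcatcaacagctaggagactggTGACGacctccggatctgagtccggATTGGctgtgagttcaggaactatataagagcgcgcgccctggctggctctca
H2-M3 (chr17:37269984-37270233, plus strand): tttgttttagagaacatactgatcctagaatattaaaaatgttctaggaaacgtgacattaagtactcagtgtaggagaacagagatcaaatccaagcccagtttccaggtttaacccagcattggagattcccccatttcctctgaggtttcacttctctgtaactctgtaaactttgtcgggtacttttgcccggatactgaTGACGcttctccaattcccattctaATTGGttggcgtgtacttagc
Tap1 (chr17:34187306-34187555, plus strand): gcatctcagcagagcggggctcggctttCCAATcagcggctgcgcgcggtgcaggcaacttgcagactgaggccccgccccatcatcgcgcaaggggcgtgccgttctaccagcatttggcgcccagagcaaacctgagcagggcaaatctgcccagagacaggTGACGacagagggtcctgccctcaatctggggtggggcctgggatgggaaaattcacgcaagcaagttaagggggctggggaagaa
Tapbp (chr17:33919228-33919477, plus strand): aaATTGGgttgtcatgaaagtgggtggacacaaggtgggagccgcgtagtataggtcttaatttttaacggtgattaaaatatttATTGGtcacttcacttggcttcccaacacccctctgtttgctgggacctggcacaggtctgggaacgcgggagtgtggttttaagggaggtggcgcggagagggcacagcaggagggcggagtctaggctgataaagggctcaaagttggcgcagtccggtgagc
In both B2m and H2-M3 exactly 20 bases separate TGACG from ATTGG, with TGACG beginning 78 and 46 bases before the start. TGACG is the core read by CREB family factors and CCAAT that of NF-Y, both partners of Nlrc5. The spaced pair was looked for after these windows had been read, on either strand with 18 to 22 bases between, and 0.247% of 32851 mouse promoter windows of the same length held it. TGACG alone occurred in 17.8% of windows and CCAAT in 33.8%, and the spaced pair overlaps both. GAAANNGAAA, found in B2m and H2-T23, occurred in 2.98%. The starts of Tap1 and Psmb9 lie 226 bases apart on opposite strands, so their windows share 225 bases. A match is a stretch of letters and not a measured site.

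Across gonadal sex, Nlrc5 and both probe sets of Tapbp fell in males, and H2-T24 was lower in males in both complements. H2-M3, B2m and Tap1 did not pass, with percent changes of -11.8, -9.87 and -9.46, and Psmb8, Psmb9 and Tap2 lay near zero. H2-T24 had been singled out by earlier results of these data on gonadal sex. Its differences between groups are therefore a description with no p-value, except for the complement averaged over sex. Values of the other genes carry adjusted p-values from limma over all 17925 tested probe sets. The genes were put together with such results in view, so the count over them supports nothing by itself. Males minus females averaged over complement, 3 of the 11 probe sets other than H2-T24 passed an adjusted p of 0.05 and all 3 were lower, where 6.56% of all tested probe sets were called in either direction and 2.61% lower. The 3 belonged to Nlrc5 and Tapbp. The median over the 9 genes, 1 probe set each, was -0.15, against 0.02 over all tested probe sets. It takes in H2-T24, chosen on these values, so it is a description only. The plot of the genes by array shows their log2 values in each group.

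**Figure D1:**
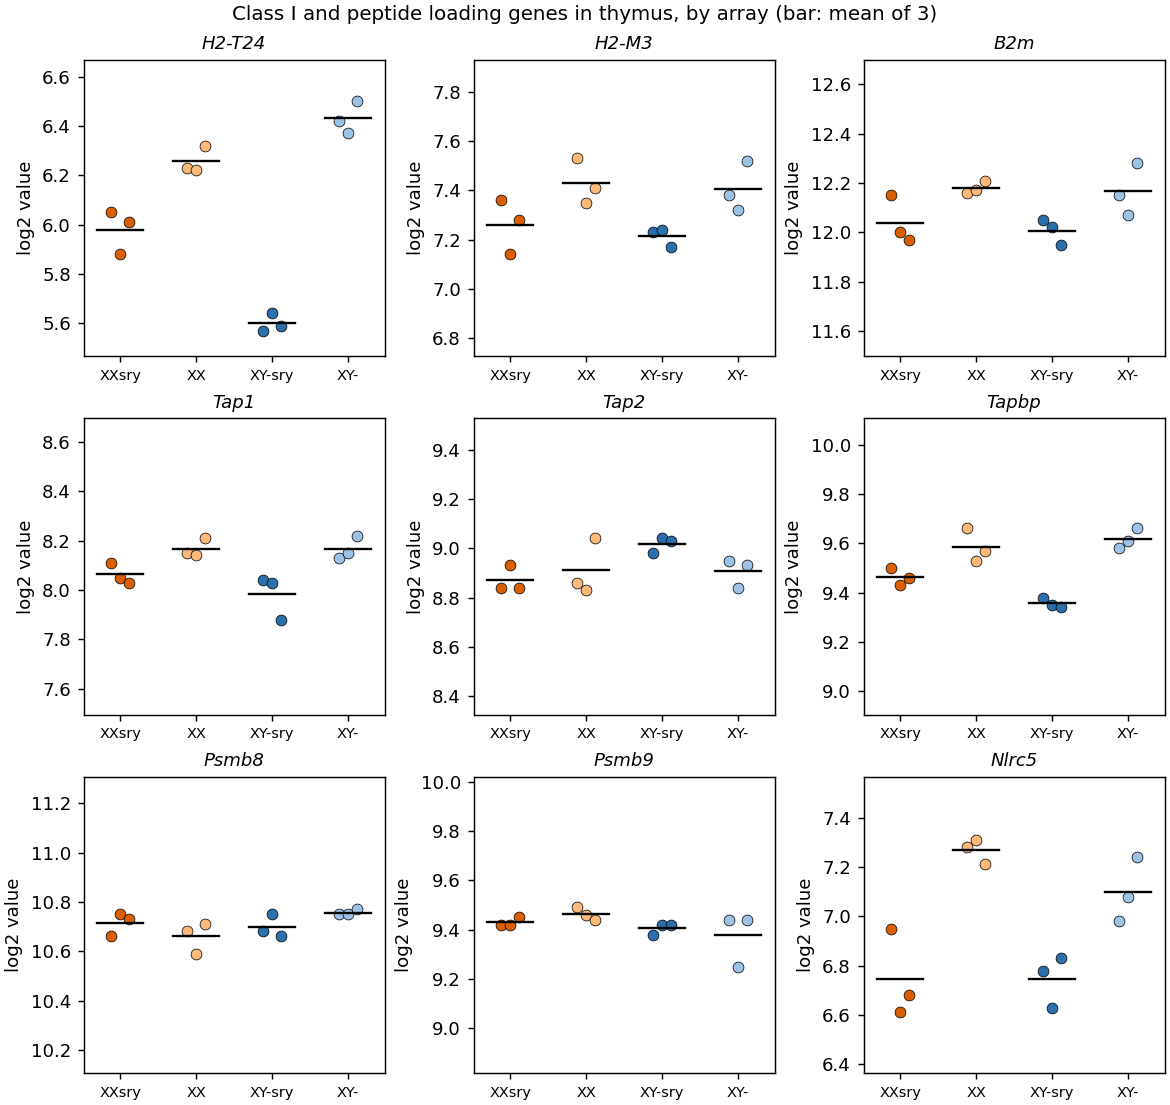
Log2 values of 9 genes (y axis, each panel spanning the same range of log2 units) in the arrays of each group (x axis), with points for single arrays and a bar for the mean of 3. H2-T24 separates all 4 groups, Nlrc5 and Tapbp are lower in XXsry and XY-sry than in XX and XY-, and Psmb8 and Psmb9 stay near 1 level.

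H2-T24 encodes a non-classical class I heavy chain of the T region. Its log2 values were 6.05, 5.88 and 6.01 in XXsry males, against 6.23, 6.22 and 6.32 in XX females. They were 5.57, 5.64 and 5.59 in XY-sry males, against 6.42, 6.37 and 6.50 in XY- females. No 2 groups overlapped, and from low to high the order was XY-sry, XXsry, XX and XY-. No background share is given for gaps between groups of 3 arrays, so this is a description. The gap between the neighbours XX and XY- was the narrowest, with means of 6.26 ± 0.055 and 6.43 ± 0.066, and those of XXsry and XY-sry were 5.98 ± 0.089 and 5.60 ± 0.036 (SD, n = 3 each).
Males were lower than females by a log2 difference of -0.83 ± 0.060 (standard error) within XY- and -0.28 ± 0.060 within XX. These are percent changes of -43.75 within XY- and -17.45 within XX. The difference within XY- minus that within XX was -0.55 ± 0.084. Among males XXsry was higher than XY-sry by 0.38 ± 0.060, and among females XX was lower than XY- (-0.17 ± 0.060). These opposite differences left a complement effect averaged over sex of 0.10 ± 0.042, which did not pass (limma adjusted p = 0.998). Leaving out any of the 12 arrays in turn kept the difference within XY- between -0.86 and -0.80 and that within XX between -0.31 and -0.23. In RNA of a whole organ, fewer cells of a type and less RNA per cell cannot be told apart.

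Nlrc5 is the NOD-like receptor that acts as the class I transactivator. It read 6.95, 6.61 and 6.68 in XXsry males, against 7.28, 7.31 and 7.21 in XX females. In XY-sry males it read 6.78, 6.63 and 6.83, against 6.98, 7.08 and 7.24 in XY- females. Every male array lay below every female array, and XXsry replicate 1 came closest to the females.
Nlrc5 fell in males by 0.44 ± 0.067 on the log2 scale (limma adjusted p = 0.00405), a percent change of -26.1. It fell by 0.52 ± 0.094 within XX (adjusted p = 0.0324) and by 0.35 ± 0.094 within XY- (adjusted p = 0.0398). Within XX, 1 of 11 probe sets was called, where 0.742% of all tested probe sets were called and 0.351% were called lower. The averaged call held in 21 of 21 alternatives (adjusted p up to 0.0268). The calls within a complement were less firm, held in 15 of 22 alternatives for XX (adjusted p up to 0.147) and 10 of 22 for XY- (up to 0.223). The difference between the 2 sex effects did not pass (0.17 ± 0.133; adjusted p = 0.647).

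Tapbp encodes tapasin, the chaperone that tethers class I heavy chains to the transporter. Its brighter probe set read 9.50, 9.43 and 9.46 in XXsry males, against 9.66, 9.53 and 9.57 in XX females. The same probe set read 9.38, 9.35 and 9.34 in XY-sry males, against 9.58, 9.61 and 9.66 in XY- females. All 6 male arrays lay below all 6 female arrays.
The other Tapbp probe set read 7.38, 7.28 and 7.28 in XXsry males, against 7.50, 7.37 and 7.42 in XX females. It read 7.04, 7.16 and 7.15 in XY-sry males, against 7.37, 7.55 and 7.64 in XY- females. Here XXsry replicate 1 lay just above the lowest females, so the sexes overlapped.
Both probe sets fell in males, by 0.19 ± 0.036 and 0.26 ± 0.051 (limma adjusted p = 0.0117 and 0.0152). With the 3' to 5' actin gap as a covariate the dimmer probe set was not called (-0.24; adjusted p = 0.0588). Within XY- they fell by 0.26 ± 0.051 and 0.40 ± 0.072 (adjusted p = 0.012 and 0.00909). Within XX neither passed, at -0.12 ± 0.051 (adjusted p = 0.355) and -0.12 ± 0.072 (adjusted p = 0.556). Tested itself, the difference between the 2 sex effects missed the threshold (-0.14 ± 0.072 and -0.29 ± 0.102; adjusted p = 0.448 and 0.238). Within XY-, 3 of 11 probe sets were called, and all 3 were lower, where 8.64% of all tested probe sets were called and 4.37% were called lower. They belonged to Tapbp and Nlrc5. With only XY-sry and XY- arrays in the fit the Tapbp calls were lost (adjusted p = 0.0744 and 0.0725). The actin covariate also ended them (adjusted p = 0.0955 and 0.121). Most calls of this contrast went with them. Over all tested probe sets 1549 were called within XY-, against 72 with only these groups in the fit and 54 with the actin covariate. The actin gap averaged 0.79 in XY-sry males and 0.627 in XY- females, and its part in the result was not tested further.

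B2m, Tap1 and H2-M3 lay lower in males by a smaller amount. B2m encodes the light chain that class I heavy chains need to reach the surface, and by its brighter probe set it read 12.15, 12 and 11.97 in XXsry males, against 12.16, 12.17 and 12.21 in XX females. In XY-sry males B2m read 12.05, 12.02 and 11.95, against 12.15, 12.07 and 12.28 in XY- females. The sexes did not overlap within either complement, although the pooled ranges did. No background share is given for gaps within 1 complement, so these gaps support nothing by themselves.
For B2m the difference was -0.15 ± 0.047 (limma adjusted p = 0.0767), and its other probe set gave -0.09 ± 0.041 (adjusted p = 0.19). Neither passed in the main fit. The brighter passed in 4 of 21 alternatives and the other in 1 of 20.
Tap1, a subunit of the peptide transporter, read 8.11, 8.05 and 8.03 in XXsry males, against 8.15, 8.14 and 8.21 in XX females. It read 8.04, 8.03 and 7.88 in XY-sry males, against 8.13, 8.15 and 8.22 in XY- females. No male array reached the lowest female array, yet Tap1 missed the threshold at -0.14 ± 0.040 (limma adjusted p = 0.0546).
With Nlrc5 and the brighter Tapbp probe set, Tap1 made 3 of 11 probe sets in which every male array lay below every female array, where 1.21% of all tested probe sets did so.
H2-M3, a heavy chain that binds N-formylated peptides, ranged from 7.14 to 7.36 in the 6 male arrays and from 7.32 to 7.53 in the 6 female arrays. Its difference was -0.18 ± 0.052 (adjusted p = 0.0595). Tap1 passed in 5 and H2-M3 in 7 of 21 alternatives, so both lay at the edge of the threshold.

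Psmb8, Psmb9 and Tap2 showed no detectable difference. Psmb8 and Psmb9 encode the inducible catalytic subunits LMP7 and LMP2, which replace their constitutive counterparts when interferon acts on a cell. Psmb9 ranged from 9.38 to 9.45 in males and from 9.25 to 9.49 in females, with a difference of -0.00 and a 95% interval from -0.09 to 0.09. The brighter Psmb8 probe set had a difference of -0.00 as well, with an interval from -0.08 to 0.08 (limma adjusted p = 0.968), and the dimmer -0.03 (adjusted p = 0.861). Tap2, the partner of Tap1 in the transporter, ranged from 8.84 to 9.04 in males and from 8.83 to 9.04 in females. Its difference was 0.04 with an interval from -0.06 to 0.13 (adjusted p = 0.677). Within XY- it read 8.98, 9.04 and 9.03 in males, against 8.95, 8.84 and 8.93 in females. The sexes did not overlap there, a gap for which no background share is given. This difference did not pass (0.11 ± 0.063, limma adjusted p = 0.295). The interval of Tap1 ran from -0.23 to -0.06, while that of Psmb9, which shares most of the promoter window printed above, included zero. The difference between the 2 genes was not tested. The shared probe sets of H2-T23 and H2-T-ps read -0.12 ± 0.047 and 0.10 ± 0.064 (adjusted p = 0.134 and 0.385), opposite in sign, and cannot be assigned to either gene. H2-T23 encodes Qa-1, the ligand of Klrd1 receptors.

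**Figure D2:**
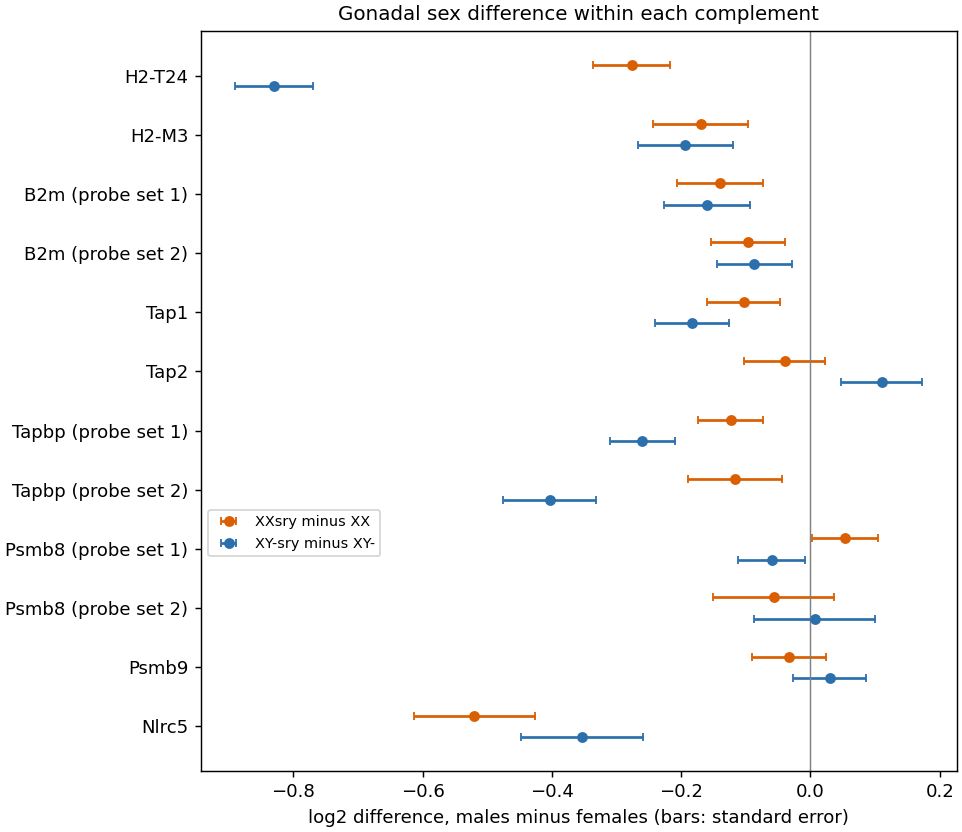
Log2 differences, males minus females, of the 12 tested probe sets (x axis, log2 units) by gene (y axis), XXsry minus XX in orange and XY-sry minus XY- in blue, with standard errors as bars. H2-T24 lies at -0.28 and -0.83, Nlrc5 at -0.52 and -0.35, and Psmb8, Psmb9 and Tap2 straddle zero.

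**Figure D3:**
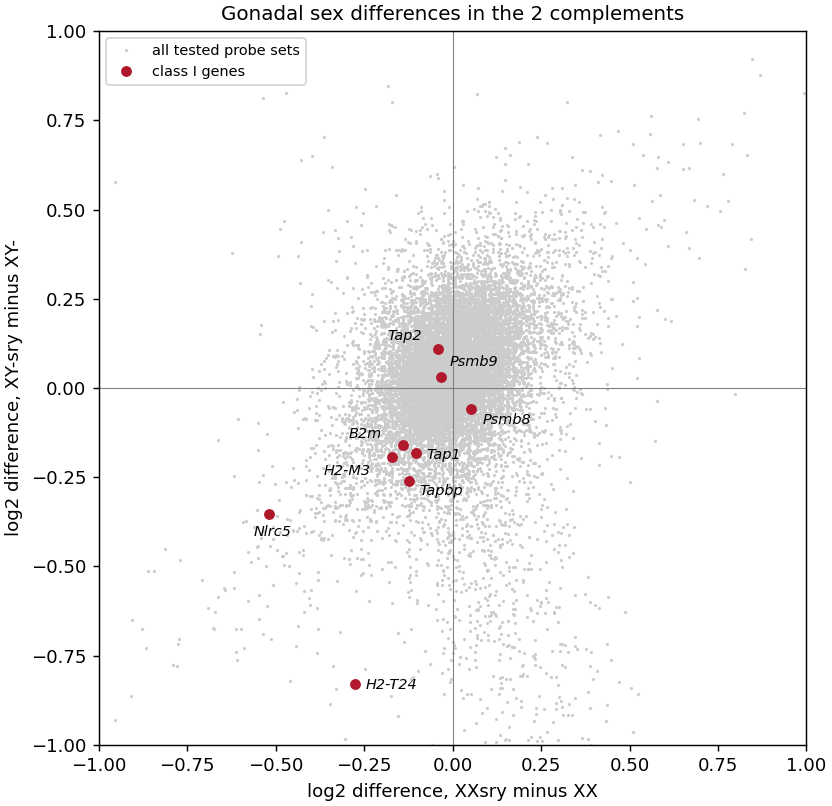
Gonadal sex differences of the 9 genes (red, 1 probe set each) over all tested probe sets (grey), XXsry minus XX on the x axis and XY-sry minus XY- on the y axis, in log2 units; points beyond 1 unit are not drawn. H2-T24, Nlrc5, Tapbp, Tap1, H2-M3 and B2m lie below zero on both axes, and Psmb8, Psmb9 and Tap2 lie near the centre.

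For the sex chromosome complement no gene passed when both sexes were averaged. For XX and XXsry minus XY- and XY-sry 0 of 12 probe sets passed (limma) and 1 had an unadjusted p under 0.05. Of all tested probe sets 0.0893% were called in either direction and 4.25% had an unadjusted p under 0.05. Differences ran from -0.07 for Tap2 to 0.10 for H2-T24, and every adjusted p was 0.998. The 95% interval of Nlrc5 ran from -0.06 to 0.23, that of B2m from -0.08 to 0.13, and that of Tapbp from -0.04 to 0.12 by its brighter probe set. In females 0 of 11 passed (limma) and 0 had an unadjusted p under 0.05, where 0.0781% and 10.6% of all tested probe sets did. Nlrc5 was the highest there, at 0.17 ± 0.094 (adjusted p = 0.569). In males 0 of 11 passed (limma) and 2 had an unadjusted p under 0.05, where 0.128% and 8.55% of all tested probe sets did. The highest in males was the dimmer Tapbp probe set at 0.20 ± 0.072 (adjusted p = 0.428). For the difference between the sex effects 0 of 11 passed (limma) and 1 had an unadjusted p under 0.05. Of all tested probe sets 13.4% had an unadjusted p under 0.05 and 1.29% were called. The share of calls was unstable: 232 probe sets were called in all, against 0 without XXsry replicate 2 or 3, XX replicate 1 or XY-sry replicate 3. There were 1 with the actin covariate and 451 without XY- replicate 3, and the reason was not tested.

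Other genes of the route were taken from lists, 1 probe set per gene, written with earlier results of these data known. Of 28 other class I heavy chains and class I-like molecules 9 were tested, and 0 passed for gonadal sex (limma), with a median of -0.09. An unadjusted p under 0.05 was found for 2 of the 9, where 24.9% of all tested probe sets had one. The classical heavy chains H2-K1 and H2-D1 differed by -0.15 and -0.06 (adjusted p = 0.144 and 0.474), and Cd1d1, which shows lipids to invariant T cells, by -0.13 (adjusted p = 0.202). Class I genes are close copies of each other, so probe sets may read more than 1 of them.
Of 14 other supply and loading genes 12 were tested, and 0 passed for gonadal sex (limma), with a median of -0.04. An unadjusted p under 0.05 was found for 1 of the 12, where 24.9% of all tested probe sets had one. The chaperones Calr and Hspa5 differed by -0.08 each (adjusted p = 0.278 and 0.479) and the proteasome activator Psme1 by -0.02 (adjusted p = 0.743). For 2 genes of the 12 the difference between the 2 sex effects was called, where 1.29% of all tested probe sets were. They were Canx, a lectin chaperone of new heavy chains (-0.20 within XX and 0.18 within XY-; adjusted p = 0.0405 for the difference between these), and Pdia3, the disulfide isomerase bound to tapasin (-0.39 and 0.16; adjusted p = 0.046). Both calls were bound to be lost in the fits named above that called no probe set at all. Canx and Pdia3 were not followed through the other fits. H2-T24 differed in the opposite sense, with its more negative value within XY-.
Psmb10, a further inducible catalytic subunit, is in this list and differed by 0.08 (adjusted p = 0.173). The 4 constitutive and thymic catalytic subunits had a list of their own, and 0 of 4 passed (limma). An unadjusted p under 0.05 was found for 0 of the 4, where 24.9% of all tested probe sets had one. Psmb7, Psmb6 and Psmb5, the constitutive subunits, differed by -0.01, 0.05 and 0.07 (adjusted p = 0.93, 0.365 and 0.34). Psmb11, the subunit of the cortical thymoproteasome, differed by 0.13 (adjusted p = 0.207).

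Among 14 tested regulators of class I genes 1 fell in males, Irf9, the DNA-binding part of the type I interferon complex (-0.31; limma adjusted p = 0.0476). That share is near the 6.56% of all tested probe sets called. Rfx5, part of the complex that binds the X box of class I promoters, differed by -0.15 (adjusted p = 0.0695), and Irf1 by -0.08 (adjusted p = 0.258). In interferon signalling 6 of 17 tested genes fell and 0 rose, with a median of -0.15, where 2.61% of all tested probe sets were called lower. These were Cxcl10 (-0.89), Cxcl9 (-0.75), Irf7 (-0.34), Gbp2 (-0.34), Irgm1 (-0.27) and Igtp (-0.22), with adjusted p between 0.000117 for Cxcl10 and 0.025 for Irf7. Cxcl9 and Cxcl10 are chemokines induced by interferon gamma, and Gbp2, Irgm1 and Igtp are interferon-induced GTPases. Within XY- the feedback inhibitor Socs1 fell by 0.66 (adjusted p = 0.0133), against -0.02 within XX (adjusted p = 0.977). The difference between these did not pass (adjusted p = 0.137). Most calls within XY- were lost in the fits named for Tapbp, and Socs1 was not followed through them. The receptor gene Ifngr1 differed by 0.00 (adjusted p = 0.992) and Ifnar1 by -0.09 (adjusted p = 0.284). Ifng and Ifnb1 lay below the filter. Of 3 tested receptors that read class I, Klrd1, the CD94 chain that recognises Qa-1, fell by 1.26 (adjusted p = 0.00156), and passed the filter only through the females (mean 4.63 in males and 5.89 in females). The CD8 chains Cd8a (-0.10; adjusted p = 0.17) and Cd8b1 (-0.08; adjusted p = 0.342) were not called. Klrd1 also stands in the natural killer cell list below.

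**Figure D4:**
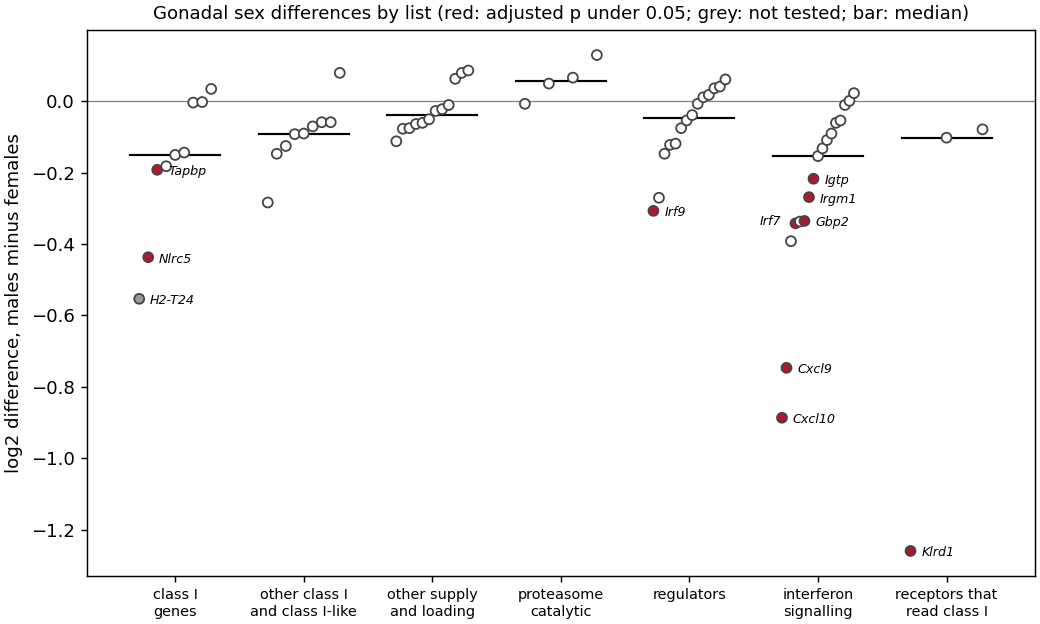
Log2 differences, males minus females averaged over complement (y axis), for the 9 genes and 6 lists of the class I route (x axis), 1 point per gene, red where the limma adjusted p was under 0.05, grey for H2-T24, with bars at the medians. The called genes all lie below zero, and the proteasome subunits have the highest median, at 0.06.

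Class I genes are transcribed in nearly every nucleated cell, and several markers of 3 cell types were called lower in males. For innate-like T and natural killer cells 5 of 9 markers were tested and 5 fell in males, but Klrd1, Cxcr3 and Cxcr6 had passed the filter only through the females, which leaves Nkg7 (-0.68) and Il2rb (-0.37) above it in both sexes. The score of the 5, the mean centred log2 value of a list on an array, ran from -0.64 to -0.36 in males and from 0.22 to 0.64 in females, and Ncr1, Zbtb16, Tbx21 and Xcl1 were not tested. Over all tested probe sets 2.61% were called lower for gonadal sex. For mature single-positive thymocytes 5 of 6 fell, with scores from -0.26 to -0.10 in males and from 0.07 to 0.33 in females. For B cells 3 of 5 fell, with overlapping scores from -0.41 to 0.13 in males and from 0.04 to 0.39 in females. Dendritic cell and macrophage markers had 0 of 10 past (limma), with scores from -0.13 to 0.11 in males and from -0.02 to 0.20 in females. Within XY- these scores did not overlap, from -0.13 to -0.06 in XY-sry males and from 0.00 to 0.20 in XY- females. Cortical epithelium scores separated the other way there, from -0.02 to 0.08 in XY-sry males and from -0.13 to -0.08 in XY- females. No background share was worked out for gaps between scores. Medullary epithelium markers had 0 of 6 past, with scores from -0.10 to 0.08 in males and from -0.10 to 0.28 in females. The lists that define the tissue were above the filter in 6 of 6 cortical epithelium markers, with 0 past, and in 7 of 8 double-positive thymocyte markers, with 1 lower (Rag2). Scores of the double-positive list ran from -0.05 to 0.01 in males and from -0.04 to 0.10 in females. Neutrophil markers had 0 of 5 past (limma), with scores from -1.23 to 0.20 in males and from -0.16 to 1.61 in females. Their differences were nonetheless large, at -1.40 for S100a9, -1.33 for S100a8, -1.08 for Ngp and -1.03 for Camp. Adjusted p for these ran from 0.0597 to 0.0834, and Ltf differed by -0.24 (adjusted p = 0.544). Camp had passed the filter only through the females. The part of these cell types in the differences of H2-T24, Nlrc5 and Tapbp was not tested.

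**Figure D5:**
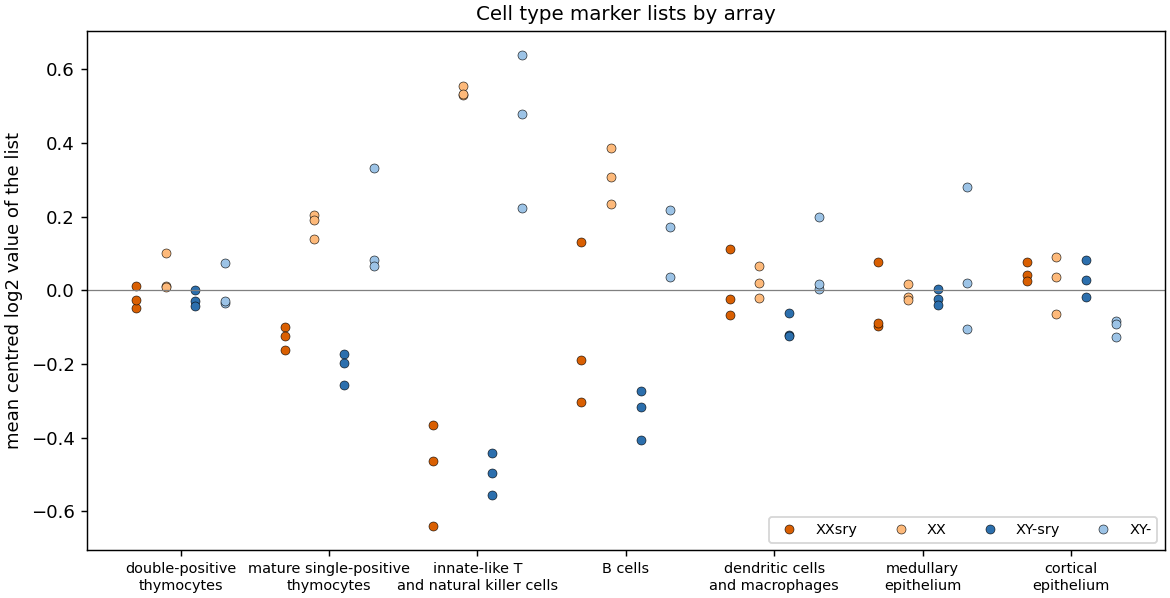
Scores of 7 cell type marker lists (x axis) on each array by group (y axis, mean centred log2 value of the list). The neutrophil list is not drawn. The innate-like and mature single-positive scores do not overlap between males and females, and the epithelial and dendritic scores do when the complements are pooled. Klrd1, Cxcr3 and Cxcr6 in the innate-like score passed the filter only through the females, which favours a gap.

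Patterns over the 12 arrays were compared with those of every other named gene, as a description across arrays that share their groups. Closest to H2-T24 were Ms4a4b, Trim30a and Cd52 (Pearson r = 0.935, 0.921 and 0.92), and closest to Tapbp were Ms4a4b, Trim30a and Rtp4 (r = 0.961, 0.957 and 0.955). Ms4a4b also stands in the list of mature single-positive thymocytes. Nlrc5 was most like Gimap4, Itgae and Arid5a (r = 0.972, 0.957 and 0.954), and H2-M3 most like Gm20559, Sesn3 and Rtp4 (r = 0.977, 0.96 and 0.954). Vim stood closest to B2m (r = 0.945) and second to Tap1 (r = 0.931), behind Igsf23 (r = 0.951). Other genes had other neighbours, with Pam16 closest to Psmb9 (r = 0.962), Kcnc1 to Psmb8 (r = 0.811) and Tmem234 to Tap2 (r = 0.926).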

How the data were processed

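Thymus RNA was hybridised to 12 one-colour Affymetrix arrays. The deposited log2 probe set values came from RMA, which the submitters' processing notes name without a version. The table held 45101 probe sets; the 64 controls were dropped, and testing was kept to the 17925 whose log2 values averaged 5 or more. The platform gene table gave 34945 probe sets 1 symbol, 932 several and 9160 none, and no gene was named from a probe set with several. Group means were fitted over all 12 arrays in R 4.3.3 with limma 3.58.1 (8 residual and 3.71 prior degrees of freedom). Contrasts were tested two-sided with Benjamini-Hochberg adjustment over all tested probe sets and a threshold of 0.05. The fit was tested on simulated data. Genes with several probe sets are given by the brightest, with the others beside it. From the lists, genes past the threshold for gonadal sex, averaged or within a complement, are named (at most 8), otherwise the 3 with the highest mean; others (Psmb11, Rfx5, Irf1, Ifngr1, Ifnar1, Canx, Pdia3, the shared class I probe sets) were named after their values were seen. The 3 closest patterns per gene were taken by Pearson r. The members and lists were chosen with earlier results of these data known. The labels do not say that arrays came from separate mice, so p-values measure the spread between these samples. Alternatives were other filters, scalings, variance models, weights, covariates, a replicate block and leaving out each array. Promoter sequences are RefSeq's (GRCm38.p6), and figures were drawn with matplotlib 3.10.9.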

Additional observations from a re-analysis of the deposited data

Results flagged for a closer look

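For H2-T24 males lay further below females within XY- than within XX. The difference within XY- minus that within XX was -0.55 on the log2 scale. Every XXsry array lay above every XY-sry array, and every XX array lay below every XY- array. The gene was flagged by a threshold on this difference, which is made of the values for which the gene had been singled out. Meeting that threshold is therefore no test, and no p-value is given. The difference stayed between -0.60 and -0.51 over 21 alternatives. The threshold was not met with the actin covariate and without XXsry replicate 2 or 3, any XX replicate, or XY-sry replicate 1 or 3.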

How the results depend on the processing

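Counts here are over 12 probe sets and include H2-T24, which was chosen on these values, so they describe stability only. Calls over all 17925 tested probe sets changed as well. For gonadal sex they numbered 1176, against 1416 with an intensity trend and robust settings, 4361 with array weights, and from 522 to 1744 without single arrays. Array weights also gave 4245 within XY- against 1549, 1320 within XX against 133, and 1477 for complement in females against 14. For gonadal sex 4 passed, against 3 with the actin covariate (the dimmer Tapbp probe set was lost, adjusted p = 0.0588), 7 with an intensity trend and robust settings and 8 with array weights, and from 4 to 6 when single arrays were left out. Within XX the count was 1, against 0 with no filter on low values and 2 with quantile normalization, array weights or 1 probe set per gene, and from 0 to 2 when single arrays were left out. Nlrc5 within XX was not called without XXsry replicate 2 or 3, XX replicate 1, 2 or 3, or XY-sry replicate 1 (adjusted p from 0.0502 to 0.147). Within XY- the count was 4, against 7 with array weights, and from 3 to 4 when single arrays were left out. The actin covariate, or a fit of only the groups compared, left 1, which was H2-T24. Within XY- Nlrc5 was not called without XXsry replicate 3, XX replicate 1 or 2, any XY-sry replicate, or XY- replicate 2 or 3 (adjusted p from 0.0539 to 0.105). Nor was it called with each array centred on its median (0.0567), no filter (0.0762), only the groups compared (0.0953) or the actin covariate (0.223). For complement the count was 0 in every alternative averaged over sex, 2 in females with array weights (H2-T24 and Nlrc5) and 0 otherwise. In males it was 1 (H2-T24), against 0 with no filter, median centring, an intensity trend and robust settings, the actin covariate or only the groups compared, and from 0 to 1 when single arrays were left out (0 without XXsry replicate 1 or 3, any XX replicate, XY-sry replicate 1 or 3, or XY- replicate 1). For the interaction it was 1, against 0 with the actin covariate, and from 0 to 1 when single arrays were left out. The cause of these changes was not tested. With the replicate number as a block, 5 probe sets passed for gonadal sex, with H2-M3 added (adjusted p = 0.0493), and the counts within XX and XY- were 1 and 4; for complement they were 0 averaged over sex, 0 in females and 1 in males, and 1 for the interaction. Same-numbered arrays of different groups had deviations correlated from -0.083 to 0.306 (median 0.041, against -0.022 for different numbers), and 8 of 12 arrays were closest to one of their own number, a hint of pairing. Not every pair deviated together, so the numbers were not used as pairs. Of 2072 values of single probe sets under an alternative, 1997 kept their side of the threshold, 45 lost and 30 gained a call, and 0 called values changed sign, while 98 uncalled values near zero did.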

Other observations

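Of 8 tested probe sets that several class I genes share, 1 fell in males, read by H2-Q9 and H2-Q7 (-0.29; limma adjusted p = 0.0307), and 0 rose. Over all tested probe sets 2.61% were called lower. A probe set shared by H2-K1 and H2-D1 differed by -0.19 (adjusted p = 0.0566), and 1 shared by H2-T9, H2-T22 and H2-T10 by -0.12 (adjusted p = 0.144). The highest was shared by Gm38417, H2-Q2 and H2-D1, at 0.20 (adjusted p = 0.16). None of the 8 passed within XX or within XY- (limma).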
